A study of Mus musculus with 48 samples.

Results

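Intermediate progenitors (IPC) and neural stem cells (NSC) of the mouse somatosensory cortex were compared at embryonic day (E) 13 by the activity of the same library of reporter DNA elements. Both groups came from C57BL/6JRj embryos that were electroporated in utero with the library at E12 and collected 24 h later. IPC were the Tbr2-positive cells (Tbr2 is the protein of Eomes) and NSC the Pax6-positive cells of the fixed, dissociated tissue. All elements with a value in both cell types at E13 were members, 11280 of the 11709 in the table. They comprised 904 E14, 2885 IPC, 3022 NSC, 2613 Mature and 875 Shadow elements and 981 scrambled controls. The remaining 429 elements lacked the IPC value, the NSC value or both. The names of IPC, NSC and Mature elements also carry the labels asc, desc or unc. The sources used here do not explain these labels or the class names, which are used as the names of the elements only.

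In the developing cortex, neural stem cells line the ventricle, divide there and give rise to intermediate progenitors, which divide further away from the ventricle and produce neurons. Pax6 is a transcription factor of the stem cells, and Eomes is one that is switched on as cells become intermediate progenitors. A massively parallel reporter assay reads how much RNA each short DNA element drives from a plasmid, and sets it against the plasmid DNA in the same cells. The activity therefore belongs to the element in a plasmid, not to the gene beside it in the genome.

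Per cell type 2 biological samples were taken at E13, with reporter DNA and RNA sequenced from each, but the authors' table holds 1 value per element and cell type. The spread between biological samples is therefore unknown, no difference has a replicate check, and no test was made between the cell types. The depth behind each value is unknown too. Because the table holds reporter activity and no gene expression, the identity of the sorted cells could not be checked against marker genes. The study covered both cell types at 5 ages, E13 to E17, with 48 libraries in all.

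Activity is given as log2 of the authors' statistic over the median statistic of the scrambled controls of the same column, plus 0.1, from which the mean of the scrambled controls was subtracted. A difference is always activity in IPC minus activity in NSC on this log2 scale, so a positive one is higher in IPC. Before scaling, the scrambled median was 0.292 in IPC and 0.164 in NSC. The controls spread less in IPC (SD 1.13) than in NSC (SD 1.60), and their differences had an SD of 1.94. An element was called higher in IPC above a difference of 3.59 and higher in NSC below -3.97, the limits that leave 2.5% of the scrambled controls beyond either side. It was called active above an activity of 2.66 in IPC or 3.49 in NSC, set the same way.

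Coordinates (mm10) stand only in the names of E14 and Shadow elements, whose own sequences were not used here. RefSeq promoter windows of GRCm38.p6, the assembly behind mm10, gave the bases of 21 of the 904 E14 elements in part, with 22 windows overlapping them. Each window runs from 250 bases before to 50 bases after a gene's start, 5′ to 3′ on the gene's strand. Capitals mark the bases that the element covers. The 4 below are shown because they hold the E14 element most active in IPC, the E14 element just beyond the limit for higher in NSC, one just short of it, and one with a low authors' p-value in both cell types. Their names are those of the genes whose start defines the window. The windows lie, in the order printed, at chr11:113308715-113309014 on the plus strand, chr6:36903283-36903582 on the plus strand, chr2:152654281-152654580 on the minus strand and chr1:90967618-90967917 on the minus strand.
Gm51927: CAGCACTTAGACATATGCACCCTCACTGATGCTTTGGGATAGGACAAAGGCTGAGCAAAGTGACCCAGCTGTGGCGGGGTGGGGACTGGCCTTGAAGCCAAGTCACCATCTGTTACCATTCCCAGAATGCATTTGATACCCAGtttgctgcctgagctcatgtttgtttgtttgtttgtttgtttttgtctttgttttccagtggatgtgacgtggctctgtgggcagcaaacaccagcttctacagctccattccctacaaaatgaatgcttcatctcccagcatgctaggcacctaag
Gm52857: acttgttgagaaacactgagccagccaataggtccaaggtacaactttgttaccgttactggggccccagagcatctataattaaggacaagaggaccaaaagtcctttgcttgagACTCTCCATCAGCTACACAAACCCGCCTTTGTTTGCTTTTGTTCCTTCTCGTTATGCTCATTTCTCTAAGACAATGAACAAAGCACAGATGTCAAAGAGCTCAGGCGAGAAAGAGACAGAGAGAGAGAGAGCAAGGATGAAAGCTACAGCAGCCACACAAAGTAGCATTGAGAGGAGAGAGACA
1700030C14Rik: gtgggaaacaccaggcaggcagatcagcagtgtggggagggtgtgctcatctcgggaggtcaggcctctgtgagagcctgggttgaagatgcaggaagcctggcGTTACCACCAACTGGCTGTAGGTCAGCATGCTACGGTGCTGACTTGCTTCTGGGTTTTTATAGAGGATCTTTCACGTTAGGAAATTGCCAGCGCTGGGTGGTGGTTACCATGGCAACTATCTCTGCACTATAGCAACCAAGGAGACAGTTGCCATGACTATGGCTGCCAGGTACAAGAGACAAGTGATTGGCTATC
Rab17: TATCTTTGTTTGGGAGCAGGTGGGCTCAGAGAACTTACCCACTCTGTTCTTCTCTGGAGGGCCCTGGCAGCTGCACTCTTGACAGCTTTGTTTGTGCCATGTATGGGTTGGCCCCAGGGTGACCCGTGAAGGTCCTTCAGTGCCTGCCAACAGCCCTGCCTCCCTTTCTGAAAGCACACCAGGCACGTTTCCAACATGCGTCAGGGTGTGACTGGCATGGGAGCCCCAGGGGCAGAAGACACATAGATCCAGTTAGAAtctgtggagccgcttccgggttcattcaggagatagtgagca

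The element at the Gm51927 window, chr11:113308592-113308857, lies within the span of Slc39a11, a zinc transporter gene, and shares 143 bases with the window. Its activity was 6.83 in IPC and 0.53 in NSC. The window held 4 matches to the E-box CANNTG on either strand, of which 1 was CAGCTG and 1 was CATCTG, counted among the 4. It also held 2 matches to the SOX motif ACAAAG, 1 of them within the shared bases. Among 32851 promoter windows of the same length, 72.3% held CANNTG, 16.3% CAGCTG and 17.2% CATCTG.

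At the Gm52857 window the element chr6:36903399-36903664 had an activity of -1.49 in IPC and 2.49 in NSC. Its difference of -3.98 lay just beyond the limit. The window held 4 matches to the SOX motif ACAAAG on either strand, 3 of them within the 184 bases shared with the element, and 1 to ACAATG. It also held 1 match to CANNTG, which was CATCTG. Of all windows, 18.7% held ACAAAG and 12.6% ACAATG. At the window of 1700030C14Rik the element had -0.37 in IPC and 3.48 in NSC, and its difference of -3.85 stayed within the limits. That window held 3 matches to CANNTG and 0 to ACAAAG or ACAATG. The Rab17 window held 2 to CANNTG and 2 to ACAAAG. The Rab17 element, with 258 bases in the window, had 1.29 in IPC and 2.25 in NSC. The authors' adjusted p-value was 0.00139 in IPC and 0.000112 in NSC there, but neither activity reached the limit used here. Motif matches describe these letters only and were not set against activity.

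In all, 374 of 10299 non-scrambled elements were higher in IPC (3.63%), and 291 were higher in NSC (2.83%), against 2.55% of scrambled controls in either direction. Activity passed its limit in 555 elements in IPC (5.39%) and in 328 in NSC (3.18%), again against 2.55% of controls. Both limits were passed by 17 elements (0.165%) and by 1 scrambled control (0.102%). The calls for higher in NSC and for active in NSC thus stood close to the share of the controls, and the excess over the controls was widest for activity in IPC. The authors' own adjusted p-value was under 0.05 for 2012 elements in IPC (19.5%) and 1564 in NSC (15.2%). It was also under 0.05 for 15.6% of scrambled controls in IPC and 13.3% in NSC, so that p-value alone separated few elements from the controls. In both cell types at once it was under 0.05 for 3.51% of elements and 1.53% of controls.

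The E14 class had the highest share of active elements in IPC. Of its elements, 105 passed the limit in IPC (11.6%), with a 95% Wilson interval of 9.69 to 13.9%. In NSC 39 passed (4.31%), with an interval of 3.17 to 5.84%. By the difference, 56 were higher in IPC (6.19%, 4.80 to 7.96%), whereas 33 were higher in NSC (3.65%, 2.61 to 5.08%). The intervals cover the sampling of elements only, not the spread between biological samples or the uncertainty of the limits. Among IPC-class elements 179 were active in IPC (6.20%), against 74 in NSC (2.56%), while 111 were higher in IPC (3.85%), against 68 higher in NSC (2.36%). Among NSC-class elements 130 were active in IPC (4.30%), against 106 in NSC (3.51%), while 103 were higher in IPC (3.41%), against 90 higher in NSC (2.98%). Mature elements active in IPC numbered 109 (4.17%), against 89 active in NSC (3.41%). For Shadow elements these counts were 32 in IPC (3.66%), against 20 in NSC (2.29%). Each of these calls was met by 2.55% of scrambled controls, and several of the shares lay near or below that.

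Class means were small beside the spread of the controls. The E14 class averaged 0.41 in IPC and 0.22 in NSC, a mean difference of 0.19 ± 0.07 (SE over elements). The IPC class averaged 0.18 in IPC cells against -0.01 in NSC cells, a mean difference of 0.19 ± 0.04. For NSC-class elements the averages were 0.03 in IPC cells against 0.08 in NSC cells, a mean difference of -0.04 ± 0.04. The mean differences of the IPC and E14 classes were positive, and those of the NSC, Mature (0.01) and scrambled (0.01 ± 0.06) classes lay near 0. The Shadow class lay between them, at 0.11 ± 0.06. These SEs cover elements only, not the spread between biological samples, and the class differences were not tested. A positive difference was found in 54.8% of E14, 55.8% of IPC and 55.2% of Shadow elements, against 50.4% of NSC, 51.5% of Mature and 53.1% of scrambled ones.

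The means of the E14 class lay above its medians, with a long upper tail. Its median activity was -0.07 in IPC and 0.10 in NSC, so the medians ran in the opposite order to the means (-0.17). Measured from the scrambled medians, -0.23 in IPC and -0.09 in NSC, the difference of medians was -0.03. The median of the differences of single elements was 0.26, against 0.15 in the controls. At the 90th percentile E14 elements reached 2.90 in IPC and 2.32 in NSC, against 1.47 and 2.03 for the controls in the same 2 columns. At the 95th percentile they reached 3.78 in IPC and 3.29 in NSC, against 2.28 and 2.79 for the controls. The IPC class had medians of -0.13 in IPC and -0.10 in NSC, a difference of -0.025, but measured from the scrambled medians the difference was 0.12, with the sign of its mean.

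The IPC and NSC classes changed order between the cell types. The NSC class minus the IPC class was -0.15 in IPC and 0.08 in NSC by means, a change of -0.23, and -0.09 in IPC and 0.04 in NSC by medians, a change of -0.12. In each cell type the class that bears its name was thus the higher one. From E13 to E17, the change by means was -0.23, -0.34, -0.31, -0.30 and -0.41. E13 had the smallest of the 5 values, and it was the age at which the NSC class itself differed least between the cell types, at -0.04, -0.26, -0.25, -0.23 and -0.19 over the 5 ages.

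Within the IPC class, all 3 labels had more elements active in IPC than in NSC. The 1091 unc elements averaged 0.27 in IPC and -0.05 in NSC, a mean difference of 0.32 ± 0.06, and 87 of them were active in IPC (7.97%) against 22 in NSC (2.02%). The 1085 desc elements differed by 0.16 ± 0.06, with 61 active in IPC (5.62%) and 31 in NSC (2.86%). The 709 asc elements differed by 0.02 ± 0.07, with 31 active in IPC (4.37%) and 21 in NSC (2.96%). The share called higher in IPC was 4.58% of unc, 3.04% of desc and 3.95% of asc elements. More elements active in IPC than in NSC were not particular to the IPC class. Of all non-scrambled elements 555 were active in IPC (5.39%), against 328 in NSC (3.18%). For NSC asc the counts were 48 against 28, and for NSC desc 53 against 36. For Mature desc they were 44 against 33, for Mature unc 49 against 40 and for Mature asc 16 in each. The unc elements of the NSC class leaned the other way, with a mean of 0.07 in IPC and 0.18 in NSC. Of them 29 were active in IPC (3.31%), against 42 in NSC (4.79%). The Mature asc elements, 298 in number, averaged -0.04 in IPC and 0.21 in NSC, a mean difference of -0.25 ± 0.14. The label differences were not tested.

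The 10 largest differences in either direction among E14 elements were taken from those beyond the limits that also had an authors' adjusted p-value under 0.05 in the higher cell type, 55 higher in IPC, against 30 in the other direction. Since the values chose them, the E13 values below are a description, and the later ages, which come from other embryos, are the values not used in the choice. Genes are the protein-coding span that holds the element, or else the nearest one, and the assay did not link an element to a gene.

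The extreme of both directions lay at one gene, Nr2e1, which encodes an orphan nuclear receptor (Tlx) that keeps neural stem cells in their undifferentiated state. The element within its span, chr10:42578462-42578727, had a statistic of 7.59 in IPC and 0.00772 in NSC. Its activity was 4.34 in IPC and -2.99 in NSC, a difference of 7.33, but this size depends on the near-zero NSC value and was 4.71 with a pseudocount of 1. A second element 30.5 kb outside the span, chr10:42614051-42614316, had a statistic of 0.187 in IPC and 11.5 in NSC. Its activity was -0.80 in IPC and 5.90 in NSC, a difference of -6.70. The pair kept its opposite signs at E14, with 1.42 for the element within the gene and -1.78 for the one outside, both within the limits of that age (2.17 and -2.51). The element outside turned to 0.20 at E15 and was -1.97 at E16, ages at which the element within the gene had no difference. At E17 the values were -0.80 within the gene and -1.62 outside, so the element within the gene no longer stood higher in IPC.

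The most active E14 element in IPC was the one within Slc39a11 printed above (chr11:113308592-113308857), with a statistic of 42.9 in IPC and 0.262 in NSC. Its difference of 6.30 at E13 was followed by 7.05 at E14, beyond the limit of that age, and by -2.19, -0.29 and -1.92 at E15 to E17. Slc39a11 had 3 E14 elements, and the other two differed by 3.19 and 3.51, so all 3 were positive and 1 of them passed the limit. Aff3, which encodes a nuclear protein of transcription elongation complexes, had 4 elements with differences between 1.65 and 5.04, all positive. The highest of them, chr1:38632803-38633068, 2.63 kb outside the span, had an activity of 6.73 in IPC and 1.69 in NSC.

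Several other elements higher in IPC at E13 kept a positive difference at every later age. In Cacna1s, a calcium channel subunit of skeletal muscle, the element chr1:136103013-136103278 had 5.95 in IPC and -0.30 in NSC. Its differences were 6.26 at E13, where it was chosen, and 2.70, 1.94, 1.61 and 0.28 at E14 to E17. In Ccdc13, a coiled-coil protein gene, chr9:121822661-121822926 had 4.96 in IPC and -1.30 in NSC, with later differences of 1.72, 0.62, 2.23 and 1.76. Plppr1, a phospholipid phosphatase-related membrane protein of neurons, held chr4:49278572-49278837 with 4.70 in IPC and -0.92 in NSC. Beside Islr2, an axon membrane protein with leucine-rich repeats, chr9:58195418-58195683 had 3.38 in IPC and -2.25 in NSC. The NSC statistic of the Islr2 element was 0.0241, so the size of its E13 difference depends on a near-zero NSC value. Gadd45gip1, a mitochondrial ribosome protein, held chr8:84835105-84835370 with 5.37 in IPC and 0.12 in NSC. These 5 elements had positive differences at all 5 ages.

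The remaining 3 of these 10 elements lay within Ccn4, a secreted matrix protein (3.35 in IPC and -2.86 in NSC), within Tenm3, a teneurin of the cell surface (3.82 in IPC and -2.18 in NSC), and 4.97 kb from Utp11, a ribosome assembly factor (4.60 in IPC and -0.97 in NSC). The NSC statistic was 0.00997 for the Ccn4 element and 0.0261 for the Tenm3 element, so the sizes of their differences depend on near-zero NSC values. The Tenm3 element was lower in IPC at E14, with a difference of -2.38. The Ccn4 element was lower in IPC at E15, with -3.10, beyond the lower limit of that age (-2.59). Over all 10 elements, 9 of 10 had a positive difference at E14 (median 1.57), 7 of 9 at E15 and at E16 (medians 0.60 and 1.10) and 6 of 10 at E17 (median 0.54). The direction at E13 was therefore mostly kept at E14. The sizes cannot be compared, because the largest E13 values were chosen, which by itself makes later values smaller. The differences of the controls also spread less at E14 (SD 1.14) than at E13 (SD 1.94).

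The 10 elements highest in NSC over IPC had mixed signs at the later ages. Near Ercc6l2, a DNA repair helicase gene, chr13:63779438-63779703 had 0.03 in IPC and 6.43 in NSC, the highest NSC activity of the class. Its difference was -6.40 at E13 and -1.19, -1.39, -1.88 and -2.41 at E14 to E17, and it was the only one of these 10 with a negative difference at all ages. Within Nos1ap, an adaptor of neuronal nitric oxide synthase, chr1:170367231-170367496 had -0.46 in IPC and 6.18 in NSC. Its differences after E13 were -2.08, -0.80, 3.61 and 1.42, so it changed sign between E15 and E16. Within Nav2, a cytoskeletal protein of growing neurites, chr7:49160248-49160513 had -0.53 in IPC and 5.77 in NSC. Its difference of -6.30 was followed by -2.01, -2.00, 1.99 and 4.16 at E14 to E17.

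The others lay within Dcdc5, a doublecortin-domain gene (-0.02 in IPC and 6.27 in NSC), Sfxn5, a mitochondrial carrier (-0.86 in IPC and 5.17 in NSC), Nt5c2, a nucleotidase (-1.37 in IPC and 4.56 in NSC), Pter (-1.07 in IPC and 4.64 in NSC) and Atad2b, a bromodomain protein (-1.30 in IPC and 4.26 in NSC), and 23.2 kb from Dok5, a signalling adaptor (-0.53 in IPC and 5.45 in NSC). Of all 10, 4 had a negative difference at E14 (median 0.15), 6 at E15 (-0.89), 5 of 9 at E16 (-0.08) and 6 at E17 (-0.31).

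All E14 elements beyond the limits were followed in the same way. Of the 56 higher in IPC at E13, 44 had a positive difference at E14, with a median of 1.15, and 11 passed the upper limit of that age (19.6%) while 0 passed the lower one. Over the whole E14 class the median was 0.13 and 6.42% passed the upper limit. Of 24 scrambled controls chosen the same way, 12 were positive and 1 passed. Of the 33 elements higher in NSC at E13, 15 had a positive difference at E14, with a median of -0.29, and 4 passed the lower limit (12.1%), against 2.77% of the class. The 25 scrambled controls chosen alike had a median of -0.36 there, with 11 positive and 1 beyond the lower limit, so the signs of this set did not stand apart from those of the controls. At E15 the first set had a median of 0.65, with 45 of 55 positive. However, 24 scrambled controls chosen alike had 0.95 there, with 19 positive. Of the first set 0 of 55 passed the upper limit, against 2.21% of the class. At E16 the median was 0.12, with 29 of 55 positive, and again 0 passed, against 5.17% of the class. At E17 the median was 0.69, against 0.07 for the class, with 33 of 56 positive. There 5 passed the upper limit (8.93%), against 5.54% of the class and 2 of 24 scrambled controls chosen alike.

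Many E14 elements active in IPC at E13 were active there a day later as well. Of the 105 E14 elements active in IPC at E13, 67 were above the limit in IPC at E14 (63.8%), against 15.0% of the class and 3 of 25 scrambled controls chosen alike. At E15, E16 and E17 the counts were 15 of 104, 4 of 103 and 15 of 105, against 5.43%, 7.06% and 10.1% of the class. Their median activity in IPC was 1.85, 1.30, 1.09 and 1.04 over the 4 later ages, against class medians of 0.31, 0.30, 0.34 and 0.39. Among IPC-class elements active in IPC, 54 of 178 were above the limit at E14 (30.3%), against 7.30% of that class. Among E14 elements active in NSC at E13, 9 of 39 were above the limit in NSC at E14 (23.1%), against 5.64% of the class. The limits at E14 were 1.54 in IPC and 2.08 in NSC, so the shares of the 2 cell types are not on one footing and were not compared.

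Across E14 elements, activity in IPC at E13 and at E14 had a Spearman correlation of 0.328, activity in NSC 0.149 and the difference 0.248 (n = 904 elements). In scrambled controls these values were 0.045, 0.042 and 0.029. For activity in IPC at E13 with E15, E16 and E17 the class had 0.346, 0.124 and 0.199, against 0.189, 0.026 and 0.085 in controls. Between IPC and NSC at E13, this correlation was 0.152 in the E14 class, 0.154 in the IPC class, 0.120 in the NSC class and 0.051 in the controls. All points of one such correlation share their libraries, and the values are a description only.

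The 4 E14 elements active in both cell types included one within Pax6, chr2:105686827-105687092, with 4.73 in IPC and 3.87 in NSC. The others were near Lamp5, a lysosome-associated membrane protein of neurons (4.08 in IPC and 3.65 in NSC), within Pip5k1b, a phosphoinositide kinase (3.04 in IPC and 3.80 in NSC), and near Arhgef26 (2.90 in IPC and 3.84 in NSC). All 4 had differences between -0.94 and 0.86, well within the limits.

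Elements at genes of stem cells had a mean difference below, and a median close to, those of the E14 class. The neural stem cell list had 25 E14 elements at 14 of its 31 genes, with a median difference of 0.22, against 0.26 for the class, and a mean of -0.05, against 0.19. Of these, 2 were higher in IPC and 1 was higher in NSC. In IPC 2 were active (8.0%, against 11.6% of the class) and in NSC 4 (16%, 95% Wilson interval 6.40 to 34.7%, against 4.31%). Active in NSC were elements within Nfia, a transcription factor of glial fate (0.63 in IPC and 5.51 in NSC), Hmga2, a chromatin protein of early stem cells (0.42 in IPC and 4.24 in NSC), and Prdm16, a transcriptional regulator of radial glia (0.28 in IPC and 3.85 in NSC). The Pax6 element above was the fourth, and the Nfia element was the one beyond the limit, with a difference of -4.88. The Hmga2 difference of -3.83 and the Prdm16 difference of -3.58 stayed within it.

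Higher in IPC were an element 10.7 kb from Hes5, a Notch target that holds back differentiation (3.50 in IPC and -0.11 in NSC, chr4:154949675-154949940), and one 52.6 kb from Sox9, a transcription factor of neural stem cells (1.44 in IPC and -2.33 in NSC). The Sox9 element stayed below the activity limit of 2.66 in IPC, so its call depends on the low NSC value. The Hes5 element was the last one beyond the upper limit, at 3.61, and the next E14 element within it was at 3.53. The 5 Pax6 elements ranged in difference from -2.63 to 0.86. The elements nearest to Sox2, the pluripotency and stem cell factor, were all positive, at 2.55, 2.80 and 0.17. They lay 215, 90.8 and 426 kb from it, and none was active in either cell type. At E14 the differences of these Sox2 elements were -1.99, -1.86 and 0.30. The lone Hes1 element, at another Notch target, had 1.38 in IPC and 2.33 in NSC. At E14 the list's median difference was -0.49, with 9 of 25 positive, against 14 of 25 at E13.

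Genes of intermediate progenitors held few E14 elements, 3 at 3 of the 20 listed genes. The difference was 0.70 for the element beside Eomes, 0.47 for the one nearest to Gadd45g, a growth arrest gene 265 kb away, and -1.38 for the one beside Mfng, a modifier of Notch. None of them was active in either cell type at E13. At E14 the Eomes and Mfng elements had differences of 2.04 and 3.46, the second beyond the limit of that age, and the Gadd45g element had -0.67.

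Elements at genes of neurons had a higher median difference than those of the stem cell and intermediate progenitor lists. The list had 15 E14 elements at 8 of its 30 genes, with a median difference of 1.42, against 0.26 for the class, and 11 of 15 were positive. In IPC 3 were active (20.0%, 95% Wilson interval 7.05 to 45.2%, against 11.6% of the class) and in NSC 0, against 4.31%, so these counts alone do not set the list apart. Within Dpysl5, a protein of axon growth, chr5:30738107-30738372 had 4.78 in IPC and 0.51 in NSC, and its difference of 4.27 passed the limit. Within Rbfox3, the splicing factor known as NeuN, chr11:118551192-118551457 had 3.01 in IPC and -1.25 in NSC, and its difference of 4.26 passed too. The third, nearest to Sox11, a factor of young neurons, at a distance of 496 kb, had 3.55 in IPC and 0.98 in NSC. Shadow elements with the coordinates of these 3 differed by 2.58 at Dpysl5, -4.03 at Rbfox3 and 2.28 at Sox11. The one at Rbfox3 had -3.24 in IPC and 0.79 in NSC and was called higher in NSC.

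The lowest differences on that list were -0.78 at Sox5 and -0.73 at Nfasc. At E14 to E17 the list's median was 0.09, 0.27, 0.17 and 0.45, so the E13 value was the highest of the 5 ages. However, the differences of the controls also spread most at E13, with an SD of 1.94, against 1.14 to 1.58 at the later ages. The ages are therefore not on one scale. Shadow elements assigned to the same list had a median of -0.37 at E13 (n = 15). Of lists for other cell types, interneurons, microglia and endothelial cells had no E14 element. An element 32.6 kb from Olig2, a factor of oligodendrocyte precursors, had 1.67 in IPC and -2.26 in NSC and was called higher in IPC, and one 65.7 kb from Lhx5, a Cajal-Retzius cell gene, had 1.25 in IPC and -0.89 in NSC. The Olig2 element was not active in IPC either, and its call depends on the low NSC value.

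Among the 28 genes with 3 or more E14 elements, some had all differences of one sign at E13. Besides Slc39a11, Aff3 and Sox2, all 3 differences were positive at Prex1, a Rac exchange factor (1.14 to 3.85), Rhbg, an ammonium transporter (1.74 to 2.46), Dach1, a transcription cofactor (0.64 to 1.75), and Sema6d, a semaphorin (0.0011 to 3.39). Over the whole E14 class 54.8% of differences were positive. The 3 elements of Klf13, a zinc finger factor, all had negative differences, from -1.65 to -0.51. Creb5, with the most elements, had 4 of 7 positive, from -1.57 to 2.73. Most single values in these ranges lay within the limits and the directions at a gene were not tested.

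Of the 904 E14 elements, 797 had a Shadow partner with both E13 values. A partner is the Shadow element whose name carries the same coordinates as the E14 element. The E14 partner averaged 0.46 in IPC against 0.25 in NSC, the Shadow partner 0.06 in IPC against -0.07 in NSC. In IPC, 98 E14 and 30 Shadow partners were active, with 3 pairs shared. In NSC, 35 E14 and 20 Shadow partners were active, with 0 shared. By the difference, 51 E14 and 16 Shadow partners were higher in IPC, with 0 shared. Higher in NSC were 30 E14 and 19 Shadow partners, with 1 shared. Over the whole classes, 11.6% of E14 and 3.66% of Shadow elements were active in IPC. In NSC these shares were 4.31% and 2.29%, against 2.55% of scrambled controls in either cell type. Between partners, activity had a Spearman correlation of -0.065 in IPC and 0.004 in NSC. Whether the shared counts differ from those of unrelated calls was not tested.

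Elements of other classes reached large differences as well, of which examples are given here. The IPC-class element IPC.seqs_desc.IPC_228 had 7.59 in IPC and -1.10 in NSC, a difference of 8.69, and -1.15 at E14. The NSC-class element NSC.seqs_desc.NSC_22 had -3.55 in IPC and 7.42 in NSC, a difference of -10.98, which was -1.56 at E14 and 2.87 at E15. Its IPC statistic at E13 was 0.00295, so the size of that difference depends on a near-zero IPC value. Among Shadow elements, chr13:23764502-23764767 had 6.39 in IPC and 0.13 in NSC. Its difference of 6.25 was followed by 1.57, 5.88, 5.67 and 0.18 at E14 to E17, positive at all ages. The scrambled controls themselves reached differences of -7.23 and 10.4, so no element exceeded the highest control in the direction of IPC. In the direction of NSC, NSC.seqs_desc.NSC_22 and some elements of other classes lay below the lowest control, but no E14 element did.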

How the data were processed

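Values came from 1 table of the whole series with 3 columns per cell type and age, and only the IPC and NSC columns were used. The activity score named statistic is the authors' deposited value, pooled over biological samples, and per the file headers and values it is linear and above 0. The authors' deposited MAD score centres and scales it by the scrambled controls, and the deposited p-value is the adjusted p of that score. Per the submitters' processing notes, cutadapt and mm10 were used. For the aligner, barcode counting and filters, the sources used here give nothing.

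Ratios to the scrambled median received a pseudocount of 0.1, and log2 values were centred on the scrambled mean, with Python 3.11.15, numpy 2.4.6, scipy 1.17.1 and pandas 2.3.3. The code was tested on simulated data. Differences near the pseudocount are understated. Limits leave 2.5% of controls beyond either side. Elements were assigned to 21900 protein-coding gene spans of GRCm38.p6, whose table gives no exons or introns here, and 57.0% of E14 elements lay within one. Whether coordinates count from 0 or 1 is not given. The window orientation was checked on 1271 overlapping windows of opposite strands, of which 0 disagreed.

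Named elements were the 10 largest E14 differences in each direction beyond the limits with an authors' p under 0.05 in the higher cell type, the 5 most active E14 elements per cell type, the 3 largest differences of other classes and elements at listed genes. Not every one is printed. Elements active in both cell types and genes with 3 or more elements were added after values were seen. Members and lists were chosen with earlier results of these data known. Alternatives were other pseudocounts, the MAD score, filters, medians, trimmed means and other limits.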

Additional observations from a re-analysis of the deposited data

How the results depend on the processing

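The mean differences depended most on how a class was summarised and on dim elements. By the median activity per cell type, the E14 class turned to -0.17 and the IPC class to -0.025, and IPC desc to -0.027 and Mature desc to -0.0066. NSC became -0.15, NSC asc -0.13, NSC desc -0.19, IPC unc 0.077 and the change of the class gap -0.12. Centred on the scrambled median, a choice made after seeing the data, the E14 class was -0.030, the IPC class 0.12 and the gap again -0.12. With only elements whose larger ratio was at least 1, NSC was -0.22, IPC 0.089, Mature -0.16, Shadow -0.044, NSC asc -0.15, NSC desc -0.25, NSC unc -0.26, IPC asc -0.14, Mature desc 0.00020 and Mature unc -0.22, and 191 elements were active in NSC. With the controls filtered alike, also added later, IPC was 0.27 and IPC unc 0.45. On the MAD scale Mature unc was 0.15 and the Pip5k1b element 1.88, which turned its sign. Limits with 1% of controls beyond gave 172 elements higher in IPC, 104 higher in NSC, 243 active in IPC and 100 active in NSC. With 5% they gave 667, 528 and, for active in NSC, 567. The causes of these changes were not tested, apart from the limits, whose own construction sets the counts. No value was 0, so leaving out zeros changed nothing. Leaving out biological samples and count models were not run, because the table has 1 pooled value per column. No paired analysis was possible because the columns carry no replicate.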
